A study of Mus musculus with 12 samples.

Results

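The transferrin receptor and 7 amino acid transporter genes were described in sorted mouse pre-T cells: Tfrc, Slc3a2, Slc7a5, Slc7a6, Slc7a1, Slc1a5, Slc38a1 and Slc38a2. They were chosen by name from the 43629 genes of the count table, and all 8 passed the filter on low counts that left 13944 genes for testing. Total RNA of thymic cells from C57BL/6 mice was sequenced in 12 libraries, 4 biological replicates in each of 3 groups. The DN3a and DN3b groups came from control mice of the genotype Zfp36l1fl/fl, Zfp36l2fl/fl, which carry the floxed alleles without Cre. The DCKO group held DN3-like cells of mice with the same floxed alleles and CD2cre, which lack both genes in cells where that Cre has acted. All 3 groups thus share the floxed alleles, and the Cre itself was present only in DCKO. Thymocytes pass from DN3a to DN3b at beta selection, the checkpoint for a working T cell receptor beta chain, while they still lack CD4 and CD8, so the 3 comparisons ask how these genes change across it and how DN3-like cells without the 2 RNA-binding proteins stand against either stage. The labels give neither the age of the mice nor whether a replicate is 1 mouse or a pool, so p-values measure the spread between these samples.

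T cells that leave quiescence take up iron and amino acids to build ribosomes, nucleotides and new cell mass, and the proteins encoded here are the main entry points. Iron-loaded transferrin is bound by the transferrin receptor CD71 (Tfrc) and taken into endosomes. Large neutral amino acids such as leucine enter through the heterodimer of Slc7a5 (LAT1) with its heavy chain Slc3a2 (CD98), and Slc7a6 (y+LAT2) is another light chain that pairs with the same heavy chain. Cationic amino acids enter through Slc7a1 (CAT1), and glutamine through Slc1a5 (ASCT2), Slc38a1 (SNAT1) and Slc38a2 (SNAT2). CD71 and CD98 are both widely used as surface markers of thymocytes and T cells that have been activated to divide. Zfp36l1 and Zfp36l2 are the targeted genes, and their products attach to AU-rich stretches in messenger RNA and hasten its decay.

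The libraries held 28479157 to 45975678 counts. Zfp36l1 stood at 1.64 to 3.8 CPM (counts divided by the library total after scaling with TMM factors, in the usual per-million form) in DCKO against 9.63 to 23.3 in DN3b and 27.1 to 43.9 in DN3a. Zfp36l2 stood at 45.4 to 87.9 CPM in DCKO against 287 to 467 and 341 to 685, so every DCKO library lay below every control library for both genes. A single feature took 9.02% of the counts of DCKO replicate 1, against at most 2.6% in any other library. All 14 pre-T cell markers examined, among them Ptcra, Rag1 and Cd3e, had counts in each group, and their summed level ranged from 9786 to 11440, 6952 to 9041 and 11090 to 15150 CPM for DN3a, DN3b and DCKO.

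Tfrc was 2.15-fold higher in DN3b than in DN3a. Per length of annotated exons it was the most abundant of the 8 transcripts in DN3b and DCKO, and level with Slc38a2 in DN3a. The gene (ENSMUSG00000022797) lies on chromosome 16 from 32608920 to 32632794 of GRCm38, on the plus strand. Its level in the 4 DN3a libraries was 162, 249.9, 217 and 263.5 CPM. In DN3b it was 354, 458, 469 and 638 CPM, and in DCKO 861, 714, 634 and 525 CPM. Every DN3b and every DCKO library thus lay above every DN3a library, while the ranges of DCKO and DN3b overlapped. The means were 223 ± 45.4, 479.9 ± 118 and 683 ± 142 CPM (SD, n = 4). The fitted log2 difference was 1.11 ± 0.20 (SE) between DN3b and DN3a (edgeR quasi-likelihood test, Benjamini-Hochberg adjusted p = 0.000703) and 1.62 ± 0.21 between DCKO and DN3a (3.5e-05). Between DCKO and DN3b it was 0.51 ± 0.20 and missed the threshold of 0.05 (adjusted p = 0.0944). That last value rests on single libraries: the adjusted p was 0.0322 without DN3b replicate 4 (log2 0.66) and 0.0478 without DCKO replicate 4 (0.62), and 0.575 without DCKO replicates 1 and 2 (0.27). In bulk RNA, fewer cells that express a gene and less RNA per cell cannot be told apart.

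The Tfrc transcript is the textbook case of control through its 3′ untranslated region (UTR), where hairpins called iron-responsive elements are bound by the iron regulatory proteins (Aco1 and Ireb2) when iron is scarce, which protects the transcript from decay. In the annotated 3′ UTR of 2458 bases, 4 hairpins of this form were found, with a C bulge, a stem of 5 pairs and the loop CAGTGN. They are shown because this element sets Tfrc apart from the other 7 genes, with the loop in capitals (plus strand, GRCm38, DNA letters).
Tfrc hairpin at chr16:32631219-32631247: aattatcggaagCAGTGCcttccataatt
Tfrc hairpin at chr16:32631598-32631626: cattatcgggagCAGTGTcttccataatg
Tfrc hairpin at chr16:32631663-32631691: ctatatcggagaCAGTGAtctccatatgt
Tfrc hairpin at chr16:32631710-32631738: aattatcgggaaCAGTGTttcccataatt
The same search of the annotated 3′ UTRs of 11683 tested genes found such a hairpin in 83 genes (0.71%), in none of the other 7 members, and 2 or more only in Tfrc. Elements with another loop or stem, in Tfrc or elsewhere, would be missed by this search. For the transcripts of the 2 binding proteins, in DN3a, DN3b and DCKO, the level of Aco1 was 51.3 ± 3.1, 52.3 ± 4.76 and 50.1 ± 4.98 CPM (SD, n = 4). Ireb2 stood at 61.5 ± 4, 55.0 ± 3.9 and 64.3 ± 6.17 CPM in the same order, and neither passed the test in any of the 3 comparisons, at adjusted p from 0.117 upward. With the replicate number as a block, Ireb2 was lower in DN3b than in DN3a (log2 -0.19 ± 0.06, edgeR, adjusted p = 0.0248), as with upper quartile scaling (-0.31 ± 0.10, 0.0212).

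**Figure D1:**
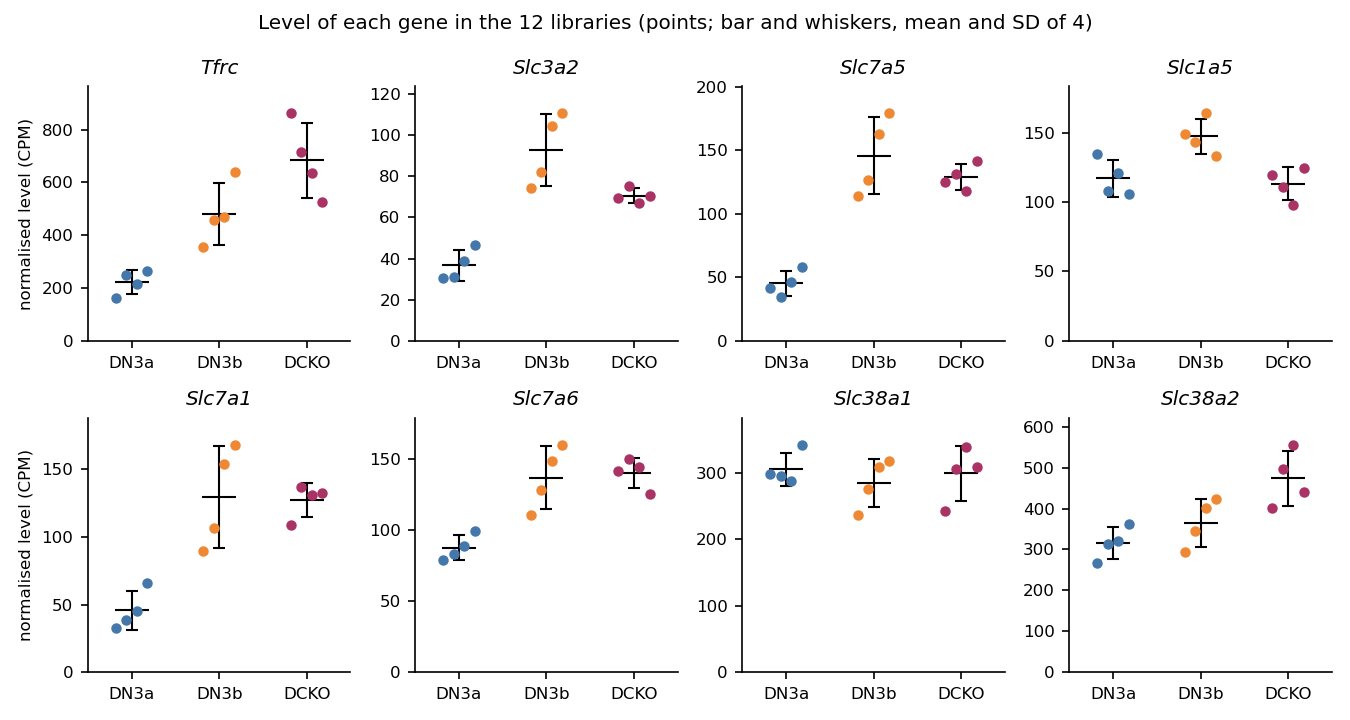
Normalised level in CPM (y axis, from 0) of each of the 8 genes in the 12 libraries, with DN3a, DN3b and DCKO on the x axis, points for libraries and black bars for the mean ± SD of 4. Tfrc, Slc3a2, Slc7a5, Slc7a1 and Slc7a6 have no DN3a library as high as any DN3b or DCKO library, and Slc38a1 overlaps between all groups. The share of all genes tested with separate ranges was not counted. Against DN3a, 52.6% of all genes were called in DN3b and 60.2% in DCKO.

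The large neutral amino acid transporter rose in both of its chains. Slc7a5, the transporting light chain (ENSMUSG00000040010, chromosome 8, 121881150 to 121907694, minus strand), had the steepest rise of the 8 between the control stages, 3.23-fold. It stood at 41.7, 34.4, 46.6 and 58.1 CPM in DN3a, at 114, 127, 163 and 179 CPM in DN3b, and at 125, 132, 118 and 141 CPM in DCKO. No DN3a library reached the level of any other library, and the DCKO values lay inside the range of DN3b. The log2 difference was 1.69 ± 0.17 (SE) for DN3b minus DN3a (edgeR, adjusted p = 3.0e-05), 1.51 ± 0.17 for DCKO minus DN3a (1.4e-05) and -0.18 ± 0.17 for DCKO minus DN3b (0.484).

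Slc3a2, the heavy chain that carries the light chains to the cell surface (ENSMUSG00000010095, chromosome 19, 8706882 to 8723369, minus strand), stood at 30.7, 30.8, 38.7 and 46.6 CPM in DN3a. Its levels were 74.2, 81.9, 105 and 111 CPM in DN3b and 69.55, 75.5, 66.9 and 70.3 CPM in DCKO. DN3a was again below every other library, and 3 of the 4 DCKO libraries lay below the lowest DN3b library. The log2 difference was 1.34 ± 0.16 between DN3b and DN3a (edgeR, adjusted p = 4.8e-05) and 0.94 ± 0.16 between DCKO and DN3a (0.000215). For DCKO minus DN3b it was -0.40 ± 0.15 (0.0898), a value that passed with upper quartile scaling (-0.47, 0.0385) and without DN3b replicate 1 (-0.49, 0.0438).

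Slc7a6, the alternative light chain that exchanges cationic for neutral amino acids (ENSMUSG00000031904, chromosome 8, 106168857 to 106198706, plus strand), rose less. It stood at 79.1, 83.5, 88.7 and 99.7 CPM in DN3a, at 111, 128, 149 and 160.2 CPM in DN3b, and at 142, 150.2, 145 and 126 CPM in DCKO. The lowest DN3b library exceeded the highest DN3a library by a small margin, and DCKO fell within the DN3b range. The log2 difference was 0.64 ± 0.12 for DN3b minus DN3a (edgeR, adjusted p = 0.000768), 0.68 ± 0.12 for DCKO minus DN3a (0.000359) and 0.04 ± 0.12 for DCKO minus DN3b (0.863).

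Slc7a1, the cationic amino acid transporter that brings in arginine and lysine (ENSMUSG00000041313, chromosome 5, 148327410 to 148399904, minus strand), stood at 33.0, 38.8, 45.6 and 65.7 CPM in DN3a. Its levels were 89.3, 106, 153 and 168 CPM in DN3b and 109, 136, 131 and 132 CPM in DCKO. DN3a stayed below all other libraries, and the spread within DN3b (129 ± 37.4, SD, n = 4) was wider than within DCKO (127 ± 12.4). The log2 difference was 1.496 ± 0.23 between DN3b and DN3a (edgeR, adjusted p = 0.000198), 1.47 ± 0.23 between DCKO and DN3a (0.000129) and -0.02 ± 0.22 between DCKO and DN3b (0.956).

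The 3 glutamine carriers did not move together. Slc1a5, an exchanger of glutamine for other neutral amino acids (ENSMUSG00000001918, chromosome 7, 16781340 to 16798274, plus strand), stood at 134.5, 108, 121 and 106 CPM in DN3a. It stood at 149, 143, 164 and 133 CPM in DN3b and at 119.8, 111, 97.8 and 125 CPM in DCKO. DN3b was high, every DCKO library lay below every DN3b library, and DN3a overlapped with both, its replicate 1 lying above DN3b replicate 4. The log2 difference was 0.33 ± 0.11 for DN3b minus DN3a (edgeR, adjusted p = 0.0209), -0.05 ± 0.11 for DCKO minus DN3a (0.709) and -0.38 ± 0.11 for DCKO minus DN3b (0.0278). The rise from DN3a to DN3b missed the threshold without DN3a replicate 2 (0.0611), DN3a replicate 4 (0.0582) or DN3b replicate 3 (0.0834), and with upper quartile scaling (log2 0.18, 0.166). The lower level in DCKO than in DN3b missed it without DN3b replicate 3 (0.0778), DCKO replicate 2 (0.0677) or DCKO replicate 3 (0.0709), and without DCKO replicates 1 and 2 (0.133). Against DN3a, upper quartile scaling gave -0.27 (0.0423). In the authors' deposited table the DCKO over DN3b log2 fold change of Slc1a5 was -0.36, with an adjusted p of 0.0214.

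Slc38a2, a sodium-coupled carrier of glutamine and alanine whose transcript is known to rise when amino acids are short (ENSMUSG00000022462, chromosome 15, 96687392 to 96699730, minus strand), was highest in DCKO. It stood at 266, 314, 321.5 and 361 CPM in DN3a, at 293, 345, 400.3 and 422 CPM in DN3b, and at 402.5, 497, 555.5 and 440.1 CPM in DCKO. Every DCKO library lay above every DN3a library, and the other ranges overlapped. DCKO exceeded DN3a by 0.59 ± 0.14 on the log2 scale (edgeR, adjusted p = 0.00305). The difference from DN3a to DN3b was 0.21 ± 0.14 (0.223), and it passed with the replicate number as a block (0.18 ± 0.06, 0.0352), since all 4 same-numbered pairs had the higher value in DN3b, by 0.14 to 0.32. Between DCKO and DN3b the difference was 0.38 ± 0.14 (0.0787).

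Slc38a1, a sodium-coupled glutamine carrier and paralog of Slc38a2 (ENSMUSG00000023169, chromosome 15, 96571418 to 96642913, minus strand), passed the test in no comparison. It stood at 298, 295, 287 and 342 CPM in DN3a, at 237, 276, 309 and 317 CPM in DN3b, and at 242, 305, 339 and 309 CPM in DCKO, and all 3 ranges overlapped. The log2 differences were -0.10 ± 0.12 (edgeR, adjusted p = 0.502), -0.03 ± 0.12 (0.840) and 0.07 ± 0.12 (0.724) for DN3b minus DN3a, DCKO minus DN3a and DCKO minus DN3b.

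Counted over the 8 genes, 6 were higher in DN3b than in DN3a and none was lower. Among all genes tested, 52.6% passed in that comparison, 27.4% higher and 25.2% lower. Against DN3a, 6 of 8 were higher in DCKO and none was lower, where 60.2% of all genes passed, 30.7% higher and 29.5% lower. Both comparisons share the DN3a libraries, so their values are only set side by side. For Slc1a5 they were log2 0.33 and -0.05, and for Slc38a2 0.21 and 0.59. Between DCKO and DN3b, 1 of 8 was lower (Slc1a5) and none was higher, near the background of 18.9%, of which 10.3% were higher and 8.58% lower. How many of all genes tested had ranges that did not overlap was not counted in any comparison. The median log2 difference of the 8 genes was 0.87, 0.81 and 0.0068 in the 3 comparisons, beside -0.02, -0.04 and -0.02 over all genes tested. With upper quartile scaling the all-gene median was -0.17, -0.26 and -0.10. It turned the balance of all calls from 3815 higher and 3519 lower to 3021 and 4536 for DN3b against DN3a, from 4275 and 4116 to 3119 and 5528 for DCKO against DN3a, and from 1438 and 1197 to 1051 and 1644 for DCKO against DN3b. Of the 8 genes it called 5 higher and none lower, 6 higher and 1 lower, and none higher and 2 lower, in the same order.

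**Figure D2:**
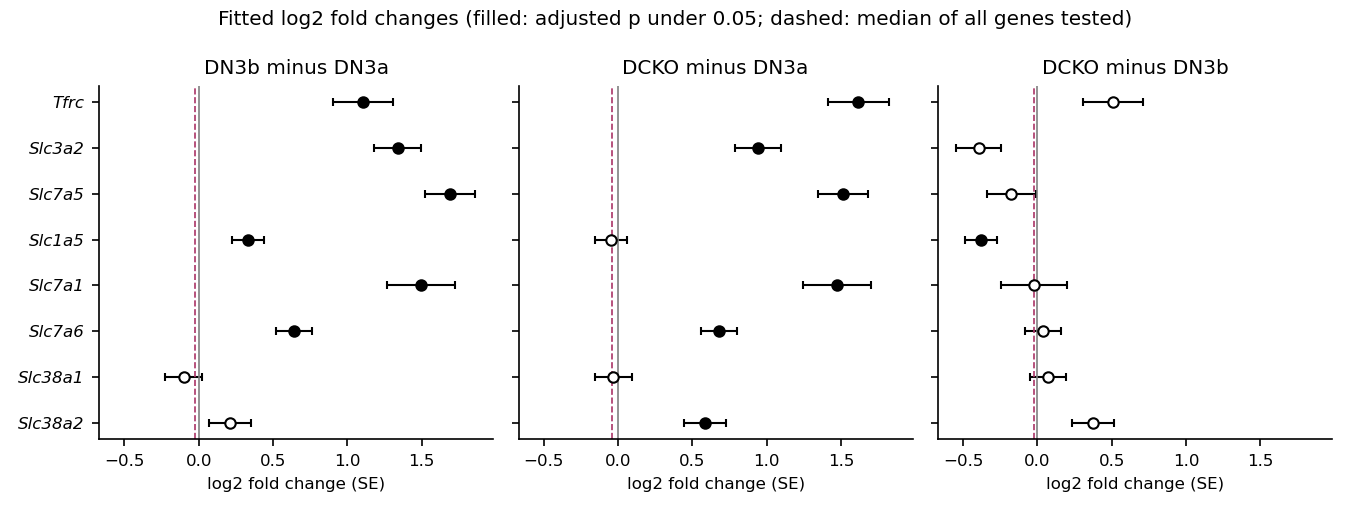
Fitted log2 fold change with its SE (x axis) for each of the 8 genes (y axis) in the 3 comparisons, filled where the adjusted p was under 0.05, with the median of all genes tested as a dashed line. The 6 filled points of the left and of the middle panel lie to the right of 0, and the right panel has 1 filled point, Slc1a5 at -0.38.

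Divided by the length of the annotated exons, levels can be set side by side between genes. In DN3a the order in CPM per kb was Tfrc (36.1 ± 7.33) and Slc38a2 (35.7 ± 4.41), which did not differ beyond their spread, then Slc1a5 (28.1 ± 3.17), Slc7a6 (19.2 ± 1.94), Slc38a1 (17.7 ± 1.44), Slc7a5 (12.2 ± 2.68), Slc3a2 (10.4 ± 2.15) and Slc7a1 (3.97 ± 1.23; SD, n = 4). In DN3b Tfrc led with 77.6 ± 19.01, and Slc38a2 (41.3 ± 6.56), Slc7a5 (39.3 ± 8.18) and Slc1a5 (35.3 ± 3.08) followed within their spread. Slc7a6 (29.99 ± 4.804) and Slc3a2 (26.3 ± 4.97) came next, and Slc38a1 (16.5 ± 2.12) and Slc7a1 (11.2 ± 3.24) were lowest. In DCKO the order was Tfrc (110.5 ± 22.9), Slc38a2 (53.6 ± 7.57), Slc7a5 (34.8 ± 2.69), Slc7a6 (30.8 ± 2.32), Slc1a5 (27.1 ± 2.83), Slc3a2 (20.0 ± 1.02), Slc38a1 (17.3 ± 2.36) and Slc7a1 (11.01 ± 1.08). By this length Slc7a5 thus had rank 6 in DN3a and rank 3 in DN3b and DCKO, while Slc7a1 had rank 8 in all 3. Among 13825 tested genes with a length, Tfrc lay at percentile 92.1 in DN3a, 95.5 in DN3b and 96.7 in DCKO. With the length of the longest transcript in place of all exons, Slc38a2 stood before Tfrc in DN3a (51.6 and 45.6 CPM per kb), Slc38a1 moved up to rank 3 in DN3a and in DCKO, and Slc7a5 had rank 4 in DN3b and rank 6 in DCKO.

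Partner chains changed in unequal measure, which was tested as the log2 ratio of their levels per length, a quantity that library scaling does not touch. Slc7a5 to Slc3a2, light to heavy chain, gave 0.37, 0.09, 0.20 and 0.25 in the DN3a libraries, 0.55, 0.56, 0.57 and 0.62 in DN3b, and 0.78, 0.73, 0.75 and 0.94 in DCKO. The 3 groups did not overlap: the ratio rose from DN3a to DN3b by 0.35 and was higher still in DCKO, by 0.22 over DN3b and 0.57 over DN3a. Each of these differences gave p = 0.0286 in a two-sided exact permutation test, the smallest value that 4 against 4 libraries allow, and 0.0321 after adjustment over the 9 ratio tests. That test takes the libraries as unpaired. Ratios of other gene pairs were not examined, so how often a ratio separates these groups is not known for any of the 3 ratios. Of all genes tested, 52.6% were called between DN3b and DN3a, 60.2% between DCKO and DN3a, and 18.9% between DCKO and DN3b. An exact sign-flip test that keeps the 4 pairs of DN3a and DN3b cannot go below 0.125, and it gave that value for DN3b against DN3a for each of the 3 ratios described here, with all 4 pairs in 1 direction. Without DN3b replicate 4 the difference between DN3b and DN3a was 0.34 and its exact p was 0.0571.

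Slc7a5 to Slc7a6, the ratio of the light chains that pair with Slc3a2, was -0.62, -0.98, -0.63 and -0.48 in DN3a, 0.35, 0.29, 0.43 and 0.46 in DN3b, and 0.12, 0.11, 0.0036 and 0.47 in DCKO. Per length of annotated exons, Slc7a6 was the more abundant light chain in every DN3a library, and Slc7a5 in every DN3b and DCKO library. With the length of the longest transcript the ratio was still under 0 in DN3a and over 0 in DN3b, but in DCKO it was -0.08, -0.10, -0.21 and 0.26, so which light chain was the more abundant there depends on the length used. The rise was 1.06 from DN3a to DN3b and 0.85 from DN3a to DCKO (exact permutation p = 0.0286 each, adjusted 0.0321). DCKO and DN3b overlapped (difference -0.20, exact p = 0.143), and without DCKO replicate 4 the difference was -0.30 (exact p = 0.0286).

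Slc38a1 to Slc38a2 was -0.80, -1.05, -1.12 and -1.04 in DN3a, -1.27, -1.29, -1.34 and -1.38 in DN3b, and -1.70, -1.67, -1.68 and -1.47 in DCKO. The groups did not overlap, with DN3a highest and DCKO lowest. The ratio fell by 0.31 from DN3a to DN3b, by 0.62 from DN3a to DCKO, and was lower by 0.31 in DCKO than in DN3b (difference -0.31), each with exact permutation p = 0.0286 (adjusted 0.0321). The exact p of the difference between DCKO and DN3b was 0.0571 when any 1 of the 4 DN3b libraries was left out, at differences of -0.33 to -0.29.

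**Figure D3:**
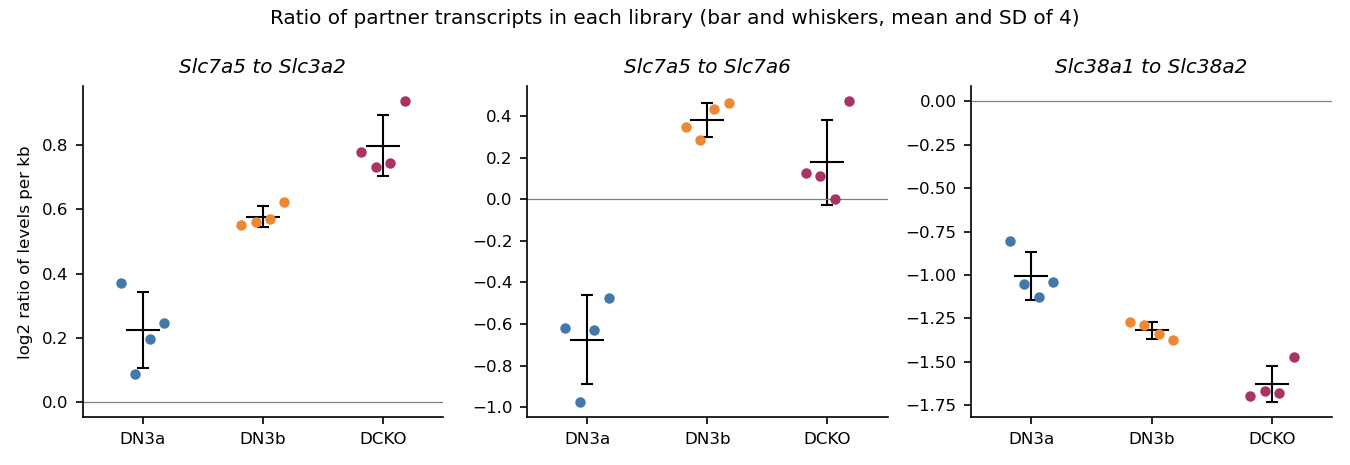
Log2 ratio of the levels per kb of exon (y axis, a separate scale for each panel, with a grey line at 0) for 3 pairs of partner transcripts in the libraries of DN3a, DN3b and DCKO (x axis), with black bars for the mean ± SD of 4. Slc7a5 to Slc3a2 and Slc38a1 to Slc38a2 separate all 3 groups, in opposite directions, and Slc7a5 to Slc7a6 lies under 0 in the 4 DN3a libraries, by this length.

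Transcripts of the cell cycle also differed between the groups. The summed level of 10 cell cycle genes, among them Mki67, Top2a, Ccnb1, Mcm5 and Pcna, was 794, 1417, 1891 and 2464 CPM in the DN3a libraries, 3797, 6143, 6669 and 6978 CPM in DN3b, and 6756, 6620, 7360 and 6983 CPM in DCKO. All 10 genes were higher in DN3b and in DCKO than in DN3a, where 27.4% and 30.7% of all genes tested were higher. Between DCKO and DN3b, 1 of 10 was higher in DCKO (10%), near the 10.3% of all genes. Within DN3b the libraries fell in the same order by the cell cycle sum and by the level of 7 of the 8 genes, all but Slc1a5. Within DN3a this held for 4 genes, Slc3a2, Slc7a1, Slc7a6 and Slc38a2. Within DCKO, whose cell cycle sums spanned a narrow range, it held for none. How many of all genes tested fell in the same orders was not counted. The 7 genes in DN3b include Slc38a1, which passed the test in no comparison. These orders are a description of 4 libraries a group, and the part of the cell cycle sum in the rise of the transporters was not tested.

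**Figure D4:**
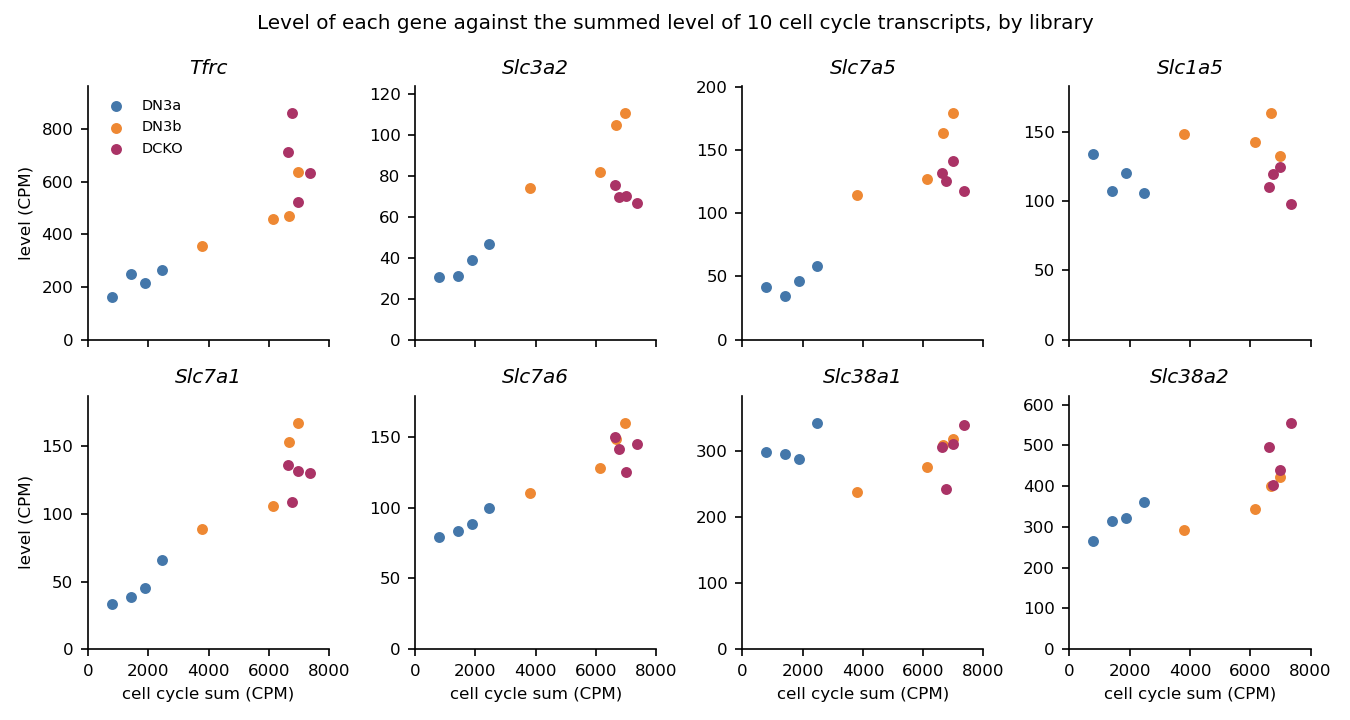
Level in CPM of each of the 8 genes (y axis, from 0) against the summed level in CPM of 10 cell cycle transcripts (x axis), 1 point per library, coloured by group. In the DN3b libraries, whose cell cycle sums run from 3797 to 6978, Tfrc rises from 354 to 638 CPM, and in DCKO Tfrc spans 525 to 861 CPM at sums of 6620 to 7360.

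The same-numbered libraries of the control stages deviated together, and the paired differences between DN3b and DN3a were alike in size. They were 1.45, 1.88, 1.81 and 1.62 on the log2 scale for Slc7a5, 1.27, 1.41, 1.43 and 1.25 for Slc3a2, and 1.43, 1.45, 1.75 and 1.35 for Slc7a1. For Tfrc they were 1.13, 0.87, 1.11 and 1.28, and for Slc7a6 0.49, 0.62, 0.75 and 0.68. The smallest positive ones were those of Slc1a5, 0.15, 0.41, 0.44 and 0.33, and of Slc38a2. Slc38a1 had the higher value in DN3b in 1 of 4 pairs, with differences from -0.33 to 0.10.

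Over the 12 libraries, Pearson correlations of log2 CPM are given as a description, since all points share the libraries and the 3 group means. Among Slc3a2, Slc7a5, Slc7a1 and Slc7a6 they ran from 0.929 to 0.976. Slc7a1 and Slc7a6 had r = 0.976, Slc3a2 and Slc7a5 0.976, Slc7a5 and Slc7a1 0.974, and Slc3a2 and Slc7a6 0.929. Tfrc had 0.937 with Slc7a6, inside that range, and 0.894 with Slc7a1, 0.859 with Slc7a5, 0.811 with Slc38a2 and 0.798 with Slc3a2. Such values are common in these libraries: 979 other genes were closer to Tfrc than Slc7a6 was. Slc38a1 stood apart, at -0.07 with Tfrc and 0.45 with Slc38a2, as did Slc1a5, at -0.06 with Tfrc and 0.43 with Slc3a2. Among 8456 protein-coding genes with an average log2 CPM not under 3 (predicted genes and receptor segments left out), the 3 most like Tfrc were the proteasome subunit genes Psmc6 (0.998), Psma4 (0.998) and Psmd6 (0.997). The 3 most like Slc7a5 were Smyd5 (0.997), Rcc1 (0.997) and Chaf1a (0.995), and those most like Slc3a2 were Got2 (0.993), Pdcd11 (0.992) and Cenpx (0.991). Slc7a1 was most like Gar1 (0.992), Lmnb1 (0.991) and Gga2 (0.991), and Slc7a6 most like Psme3 (0.991), Sf3b3 (0.991) and Nup50 (0.990). For the glutamine carriers the nearest were Entpd6 (0.977), Spryd3 (0.939) and Dus2 (0.934) for Slc1a5, Stau1 (0.933), Hnrnph3 (0.913) and Zmynd11 (0.883) for Slc38a1, and Cldnd1 (0.977), Pum2 (0.977) and Celf1 (0.976) for Slc38a2.

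AU-rich sites were read from the annotated 3′ UTRs, since Zfp36 family proteins are known to bind such stretches. The motif TATTTAT (sense strand, DNA letters, overlapping matches counted) was present in 4 of the 8 genes: 2 copies in Tfrc, 1 in Slc7a6 (2068 bases of UTR), 2 in Slc38a1 (5293 bases) and 2 in Slc38a2 (2735 bases). The UTRs of Slc3a2 (841 bases), Slc7a5 (1890), Slc1a5 (535) and Slc7a1 (5030) had none, and 29.9% of the 11683 genes searched had at least 1. That share takes no account of UTR length, whose median was 1172 bases. The 4 genes with a site lay at length percentiles 77.9, 71.5, 96.5 and 81.25 in the order named. The 4 without lay at 38.65, 67.9, 26.7 and 95.9. The sites are shown with their neighbouring bases, the motif in capitals; the Tfrc copies are 11 bases apart and their windows overlap, and the Slc7a6 copy is also the sole match among the 8 genes to the 9-base motif TTATTTATT, which 8.09% of genes hold.
Tfrc at chr16:32631137-32631166, plus strand: tggcactgagaTATTTATtgtttatttatc
Tfrc at chr16:32631148-32631177, plus strand: tatttattgttTATTTATcagtgacagagt
Slc7a6 at chr8:106197588-106197617, plus strand: ctgtatgtcatTATTTATtgatatttaatc
Slc38a1 at chr15:96576275-96576304, minus strand: tgaattgtataTATTTATtttgctttacag
Slc38a1 at chr15:96574571-96574600, minus strand: tatttgcagcaTATTTATttgcaggaagca
Slc38a2 at chr15:96687930-96687959, minus strand: aactgtactgtTATTTATagagcagcatta
Slc38a2 at chr15:96687884-96687913, minus strand: ctatttttcaaTATTTATgataaactgtac
The log2 differences between DCKO and DN3b were 0.51 for Tfrc, 0.38 for Slc38a2, 0.07 for Slc38a1 and 0.04 for Slc7a6, the 4 genes with a site, none of which passed the test. They were -0.02 for Slc7a1, -0.18 for Slc7a5, -0.38 for Slc1a5 and -0.40 for Slc3a2, the 4 without, of which Slc1a5 passed. With upper quartile scaling Slc7a6 (-0.04) and Slc38a1 (-0.0060) changed sign. Over all genes searched the median difference was 0.16 for the 3487 with a site and -0.07 for the 8196 without. For DCKO minus DN3a these medians were 0.09 and 0.02, and for DN3b minus DN3a they stood the other way round, -0.07 and 0.11. Genes with and without a site were not matched for UTR length in these medians. A match is a description of the annotated sequence, and binding was not measured.

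Promoter windows from RefSeq (GRCm38.p6, 250 bases before to 50 after a start) were at hand for 5 of the 8 genes, Tfrc, Slc3a2, Slc7a1, Slc7a6 and Slc38a2, in 8 windows. The palindrome CACGTG, bound by Myc with Max, was in none of them (7.15% of 32851 windows hold it), and TGATGNAAT, searched on both strands as a form of the element of Atf4, was in none either (0.965% of windows). Sequence outside these short windows and other forms of either motif were not searched. The absence therefore does not show that the genes lack such elements.

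Known regulators of the 8 genes were followed as a list of 17. Of these, 3 were higher and 8 lower in DN3b than in DN3a, 5 higher and 7 lower in DCKO than in DN3a, and 4 higher and 2 lower in DCKO than in DN3b, the targeted genes included. These are 64.7%, 70.6% and 35.3% of the list, beside 52.6%, 60.2% and 18.9% of all genes. Upper quartile scaling gave 3 and 10, 3 and 8, and 3 and 2. Atf4, the transcription factor of the amino acid response that drives transporter genes, had 108.5 ± 6.98, 187 ± 25.8 and 246.5 ± 32.5 CPM in the order DN3a, DN3b and DCKO (SD, n = 4). Its log2 difference against DN3a was 0.79 ± 0.12 in DN3b (edgeR, adjusted p = 0.000181) and 1.18 ± 0.12 in DCKO (7.3e-06). Myc, known to raise Tfrc and Slc7a5 in activated T cells, was higher in DN3b than in DN3a (208 ± 20.6 against 132 ± 25.6 CPM, log2 0.66 ± 0.14, adjusted p = 0.00178). In DCKO Myc stood at 174 ± 24.5 CPM and was called higher than in DN3a, a call that did not hold in 8 of 21 alternatives. Atf4 was called higher in DCKO than in DN3b, which did not hold in 9 of 21.

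Max, the partner of Myc, was higher against DN3a in DN3b (log2 0.43 ± 0.10) and in DCKO (0.59 ± 0.10). Mycn was lower in both (19.7 ± 8.05, 3.4 ± 3.19 and 3.08 ± 1.17 CPM for DN3a, DN3b and DCKO), as was Mxd4, a repressor that competes for Max (246 ± 81.3, 95.7 ± 58 and 51.3 ± 4.56 CPM). Txnip, an arrestin-like brake on glucose uptake, fell from 561.5 ± 35.8 CPM in DN3a to 189 ± 81.8 in DN3b (log2 -1.57 ± 0.25, edgeR, adjusted p = 0.000261) and stood at 129 ± 27.6 in DCKO (-2.12 ± 0.25, 2.2e-05). Hif1a, the oxygen-sensitive factor that raises Tfrc, was higher in DCKO than in DN3a (292 ± 46.2 against 162 ± 15.0 CPM, log2 0.85 ± 0.13, 0.000112), and stood at 187 ± 23.0 CPM in DN3b.

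Other RNA-binding regulators moved unevenly. Zc3h12a, the endonuclease Regnase-1 that is known to cut the Tfrc transcript, was lower in DCKO than in DN3a (6.58 ± 0.59 against 13.5 ± 3.22 CPM, log2 -1.03 ± 0.22, edgeR, adjusted p = 0.00141), and stood at 9.13 ± 2.65 CPM in DN3b. Rc3h1 (Roquin-1) was lower than in DN3a in both DN3b (-0.47 ± 0.12) and DCKO (-0.45 ± 0.12). Rc3h2 (Roquin-2) was lower in DN3b than in DN3a (-0.59 ± 0.12, 0.001) and higher in DCKO than in DN3b (0.95 ± 0.12, 0.000186), at 179 ± 21.2, 118.5 ± 6.95 and 228.5 ± 31.5 CPM in DN3a, DN3b and DCKO. The ubiquitin ligases Nedd4l (49.75 ± 4.04, 41.7 ± 2.67 and 57.1 ± 3.69 CPM) and Nedd4 (561.5 ± 35.9, 567 ± 30.2 and 581.5 ± 23.3 CPM) and the low-expressed Zfp36 (1.36 ± 0.71, 2.03 ± 0.2 and 1.98 ± 0.32 CPM) complete the list.

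Of 30 genes of iron uptake, storage and use, 24 were tested, and 13 were higher and 3 lower in DN3b than in DN3a. In DCKO, 10 were higher and 2 lower than in DN3a, and 2 were higher and none lower than in DN3b. The calls made up 66.7%, 50% and 8.33% of the list, beside 52.6%, 60.2% and 18.9% of all genes. Glrx5, which takes part in iron-sulphur cluster assembly, had 22.6 ± 1.33, 43.2 ± 5 and 42.7 ± 3.12 CPM in DN3a, DN3b and DCKO (SD, n = 4). Its log2 differences against DN3a were 0.93 ± 0.11 (edgeR, adjusted p = 4.3e-05) and 0.92 ± 0.11 (1.8e-05). The scaffold gene Iscu rose by 0.93 ± 0.12 in DCKO against DN3a. Fbxl5, whose iron-sensing product has iron regulatory protein degraded, was lower in DN3b than in DN3a (178 ± 22.5 against 292.5 ± 31.1 CPM, -0.72 ± 0.12). Hfe, whose product binds the transferrin receptor, was low throughout (1.98 ± 0.61, 1.03 ± 0.34 and 3.55 ± 0.78 CPM) and higher in DCKO than in DN3b (1.78 ± 0.30, 0.00172). With upper quartile scaling the counts of the list were 10 higher and 6 lower, 8 and 5, and 1 and 3.

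Of 36 other amino acid transporters, 23 were tested, and 5 were higher and 8 lower in DN3b than in DN3a, 2 higher and 10 lower in DCKO than in DN3a, and 1 higher and 3 lower in DCKO than in DN3b. With both directions pooled, the calls made up 56.5%, 52.2% and 17.4% of the list, near the shares of all genes (52.6%, 60.2% and 18.9%). By direction, the calls in DCKO against DN3a leaned to lower, 10 against 2, where 29.5% of all genes were lower and 30.7% higher. Their median log2 difference was -0.15, -0.52 and -0.45, against 0.87, 0.81 and 0.0068 for the 8 genes. Slc38a9, the lysosomal arginine sensor, was lower in DN3b (24.6 ± 7.04 CPM) and DCKO (18.4 ± 2.28) than in DN3a (68.3 ± 7.42), by log2 -1.47 ± 0.18 (edgeR, adjusted p = 6.1e-05) and -1.90 ± 0.18 (6.6e-06). Slc38a6 went from 110.5 ± 11.9 to 56.1 ± 7.34 and 53.2 ± 7.01 CPM, with log2 differences of -0.98 ± 0.13 and -1.05 ± 0.13. Slc1a4, the close relative of Slc1a5, was at 0.56 ± 0.35 CPM in DN3a and 3.56 ± 1.44 in DN3b (2.72 ± 0.42, 0.000235).

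Of the 4 transporters called between DCKO and DN3b, Slc16a10 was higher in DCKO, and Slc43a1, Slc36a1 and Slc7a4 were lower. Slc16a10 (TAT1), a carrier of aromatic amino acids, had 78.4 ± 11.2, 103 ± 20.2 and 202 ± 26.6 CPM in DN3a, DN3b and DCKO, higher in DCKO than in DN3a by 1.36 ± 0.15 (edgeR, adjusted p = 1.2e-05) and than in DN3b by 0.97 ± 0.15 (0.000825). Slc43a1 (LAT3), a facilitator of large neutral amino acids and so a carrier of the same cargo as Slc7a5, stood at 71.8 ± 8.26, 89.1 ± 10.7 and 38.1 ± 3.57 CPM, with log2 differences of -0.91 ± 0.12 (3.5e-05) against DN3a and -1.22 ± 0.12 (2.7e-05) against DN3b. Slc36a1, a lysosomal proton-coupled carrier, was lower in DCKO than in DN3b as well (6.45 ± 0.73 against 10.5 ± 0.95 CPM, -0.71 ± 0.13, 0.0031) and than in DN3a (11.8 CPM, -0.87 ± 0.13, 0.000123). For none of these 3 did the ranges of DCKO and DN3b overlap. Slc7a4 was low, at 2.41 ± 0.46, 1.73 ± 0.86 and 0.57 ± 0.33 CPM in DN3a, DN3b and DCKO, and its call between DCKO and DN3b was lost in 7 of 21 alternatives. Upper quartile scaling counted 3 higher and 8 lower, 2 and 11, and 1 and 5.

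The mTORC1 pathway, through which cells sense the amino acids taken up, had calls in both directions: of 37 genes, 11 were higher and 7 lower in DN3b than in DN3a, 10 higher and 11 lower in DCKO than in DN3a, and 3 higher and 3 lower in DCKO than in DN3b. The calls made up 48.6%, 56.8% and 16.2% of the list, near the 52.6%, 60.2% and 18.9% of all genes. Upper quartile scaling gave 9 and 9, 9 and 18, and 2 and 5. Sesn3, a sestrin that restrains mTORC1, had 30.9 ± 3.67, 17.8 ± 1.89 and 8.72 ± 1.16 CPM in DN3a, DN3b and DCKO, and passed in all 3 comparisons (edgeR, log2 -0.79 ± 0.13, adjusted p = 0.000425; -1.82 ± 0.14, 2.2e-06; -1.03 ± 0.14, 0.000329). Eif4ebp1, the translation repressor that mTORC1 switches off, was higher than in DN3a in DN3b (1.33 ± 0.24) and DCKO (2.05 ± 0.25), as was Sec13, shared by nuclear pore and mTORC1 sensing complexes (1.05 ± 0.11 and 1.24 ± 0.11).

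Synthetases load amino acids onto transfer RNA. All 23 cytosolic aminoacyl-tRNA synthetase and cofactor genes tested were higher in DN3b than in DN3a and 22 in DCKO, with none lower, and 2 of 23 were higher in DCKO than in DN3b. Of the list that is 100%, 95.7% and 8.70%, where 27.4%, 30.7% and 10.3% of all genes were higher. The last share lay near that of all genes. Mars rose from 79.4 ± 9.54 CPM to 193 ± 25.5 in DN3b and 204 ± 20.9 in DCKO, and Kars from 187 ± 20.9 to 393 ± 54.1 in DN3b. The cofactor Aimp2 was higher by 1.33 ± 0.13 (edgeR, adjusted p = 2.6e-05) and 1.41 ± 0.13 (4.6e-06). Eef1e1, another cofactor of the synthetase complex, had 33.7 ± 5.06, 70.3 ± 15.9 and 171 ± 24.3 CPM in DN3a, DN3b and DCKO, with a log2 difference of 1.29 ± 0.16 between DCKO and DN3b (0.000209) and no overlap of those groups. Upper quartile scaling called 22, 22 and 1 genes higher and none lower.

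Among 17 genes of glutamine use, 12 were higher and 1 lower in DN3b than in DN3a, 15 higher and none lower in DCKO than in DN3a, and 4 higher and 1 lower in DCKO than in DN3b. As shares of the list these calls were 76.5%, 88.2% and 29.4%, beside 52.6%, 60.2% and 18.9% of all genes. The enzymes of nucleotide synthesis that consume glutamine were among the genes called: Cad rose by 1.92 ± 0.19 and Pfas by 1.46 ± 0.13 in DN3b, and Ctps rose by 1.83 ± 0.14 and Ppat by 1.62 ± 0.16 in DCKO (edgeR, adjusted p from 2.7e-06 to 3.0e-05). The aspartate aminotransferase Got1 rose by 1.77 ± 0.18 and 1.94 ± 0.18. Glul, which makes glutamine, was higher in DCKO (81.5 ± 9.01 CPM) than in DN3b (48.6 ± 3.88) by 0.75 ± 0.10 (0.000445). Gfpt1, which spends glutamine in hexosamine synthesis, was higher in DCKO by 0.77 ± 0.14 (0.00299). With upper quartile scaling the counts were 12 and 2, 14 and 1, and 4 and 1.

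Of 25 genes of the Atf4 amino acid response, 20 were tested, and 12 were higher and 2 lower in DN3b than in DN3a, 14 higher and 4 lower in DCKO than in DN3a, and 3 higher and 1 lower in DCKO than in DN3b. Called in either direction were thus 70%, 90% and 20% of those tested, beside 52.6%, 60.2% and 18.9% of all genes. The last share lay near that of all genes. Shmt2, Mthfd2 and Psat1 encode enzymes of serine and one-carbon metabolism: Shmt2 rose by 2.08 ± 0.19, Mthfd2 by 1.82 ± 0.21 and Psat1 by 1.76 ± 0.22 on the log2 scale in DN3b (edgeR, adjusted p = 2.6e-05, 4.5e-05 and 6.1e-05), and Mthfd2 by 2.37 ± 0.21 in DCKO against DN3a. Eif2s1, the subunit whose phosphorylation triggers the response, was higher in DCKO than in DN3a by 1.56 ± 0.16. Eif2ak4 (GCN2), the kinase that senses uncharged transfer RNA, was lower in DCKO (25.3 ± 1.29 CPM) than in DN3b (37.3 ± 1.42), by -0.56 ± 0.08 (0.000727). The counts with upper quartile scaling were 11 and 3, 13 and 4, and 2 and 2.

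**Figure D5:**
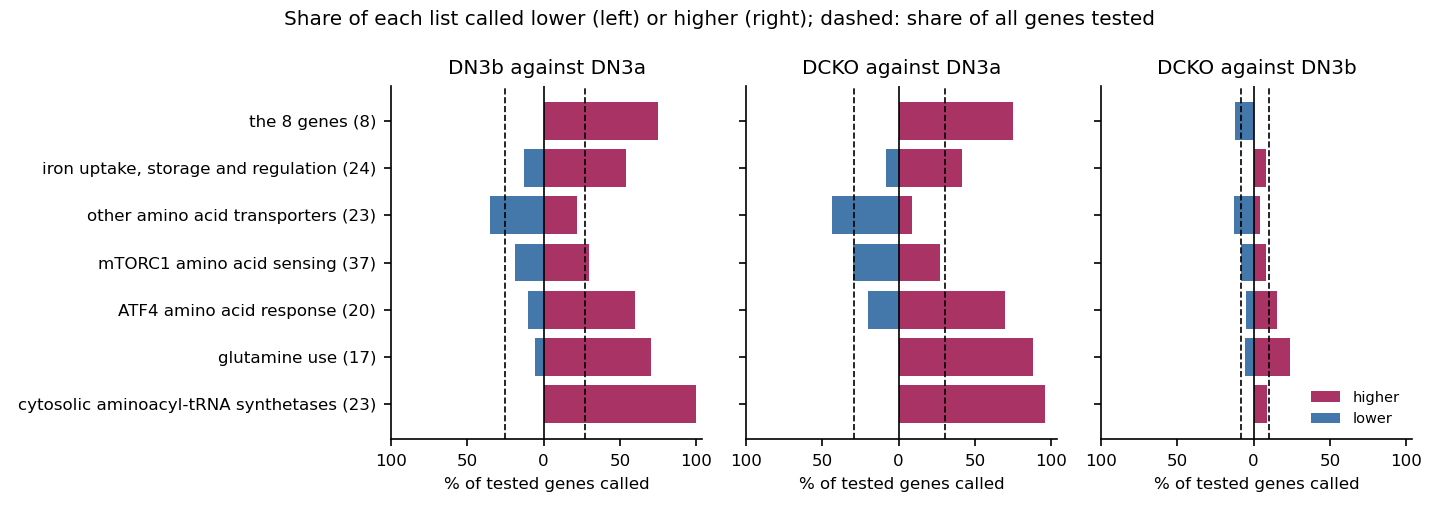
Share in percent of the tested genes of each list (number in parentheses on the y axis) that were called lower (blue, to the left of 0) or higher (red, to the right of 0) in the 3 comparisons, with the shares over all genes tested as dashed lines. All 23 genes of the aminoacyl-tRNA synthetase list are higher in DN3b than in DN3a, and of the 23 other amino acid transporters 10 are lower and 2 higher in DCKO than in DN3a.

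Markers of other cells were summed by list. Erythroid genes, examined since red cell precursors hold much Tfrc, had sums over 10 genes of 12 to 35.7, 3.84 to 32.65 and 6.85 to 20.8 CPM for DN3a, DN3b and DCKO, with Slc4a1 at 0 in DN3b. Myeloid genes (10) summed to 24.55 to 35.1, 5.17 to 13.95 and 12.3 to 24.7 CPM, and dendritic cell genes (10) to 11.3 to 17.3, 15 to 21.1 and 16.9 to 31.3 CPM, with Cd209a at 0 in all groups and Siglech in DCKO. B cell genes (8) summed to 43.1 to 58.5, 10.1 to 32.6 and 19.5 to 24.9 CPM, with Vpreb3 at 0 in DN3a and DCKO and Pax5 in DN3b. Thymic stroma genes (12) summed to 199.7 to 275, 87.4 to 173 and 109 to 215.5 CPM, with Pdgfra at 0 in all groups and Krt5, Krt14 and Foxn1 at 0 in DN3a. The erythroid, myeloid, B cell and stroma sums were on average higher in DN3a than in the other groups, and the dendritic cell sum was lowest there. The erythroid ranges overlapped between all groups. Single markers went other ways: Cdh5, an endothelial cadherin of the stroma list, stood at 1.06 ± 0.52, 1.44 ± 1.87 and 32.7 ± 20.7 CPM in DN3a, DN3b and DCKO, higher in DCKO by 4.91 ± 0.88 (edgeR, adjusted p = 0.000397) against DN3a and 4.47 ± 0.86 (0.00344) against DN3b. Flt3, of the dendritic cell list, was higher in DCKO than in DN3a by 0.95 ± 0.18 (0.00059). Most of the stroma sum came from Pecam1 (143.8, 97.1 and 107.5 CPM) and, in DN3a, Epcam (96.1 CPM). Which cells the Pecam1 and Epcam transcripts came from was not tested. The stroma sums of DN3a exceed the DN3a levels of Slc3a2, Slc7a5, Slc7a1, Slc7a6 and Slc1a5. That sets a sum over 12 genes, of which Krt5, Krt14, Foxn1 and Pdgfra were at 0, beside single genes. For all these lists, their part in the results was not tested.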

How the data were processed

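Stranded libraries were built from total RNA depleted of ribosomal RNA, per the labels' protocols. Per the submitters' processing notes the tools were TopHat2 2.0.12, Trim Galore, DESeq2 1.6.3 and HTSeq, on GRCm38; neither the release of the annotation nor the strand option of the counting was found in these sources, and reads of overlapping or antisense genes cannot be told apart (among the 8 genes only Slc7a5 has an annotated overlap, Gm20388, with 0 counts). The authors deposited raw counts per gene, which all tests used. The authors' deposited normalised signal (counts divided by a size factor per library) was not used further. The authors' deposited DESeq2 tables give for each gene a log2 fold change, its error, a test score and p-values; only the values named as theirs were used.

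Symbols came from GENCODE M21 (42548 of 43629 genes). Genes were filtered with filterByExpr (minimum count 10), and all 12 libraries entered 1 quasi-likelihood fit in edgeR 4.0.16 (R 4.3.3) with TMM factors and 9 residual degrees of freedom, two-sided, adjusted over the 13944 genes of a comparison; the threshold was 0.05. The SE is the log2 fold change divided by the square root of F. On simulated counts with 200 changed genes a comparison, the fit was checked before use. Ratios of 2 genes took exact permutation tests with a prior count of 0.5. No pair of replicates was alike within counting noise. Same-numbered DN3a and DN3b libraries deviated together (correlation of deviations from the group means 0.354 to 0.564), a pairing read from the data; DCKO numbers did not pair. Intervals were not drawn from counts, since PCR copies are not told apart. 3′ UTRs are the longest annotated per gene; RefSeq promoters matched 5 of 8 genes, and protein sequences were not used here.

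Named genes were, for each list, up to 3 per comparison with the smallest adjusted p; all regulators; the targeted genes; and the 3 most alike by correlation. Fold changes of genes outside the 8 are printed only where the call held under all 21 alternatives, apart from Ireb2. The comparisons besides that one in which such a gene is described, and the genes given by level alone, were chosen after their values were seen. The 8 genes and the lists (iron, other amino acid transporters, mTORC1 sensing, Atf4 response, glutamine use, aminoacyl-tRNA synthetases, regulators, cell cycle, pre-T cell, erythroid, myeloid, dendritic, B cell and stroma markers) were chosen with earlier results of these data known. Alternatives were DESeq2 1.42.0 and its size factors, limma-voom (limma 3.58.1), upper quartile factors, no filter, a stricter filter (CPM of 1 in 4 libraries), the 8 libraries of a comparison alone, a replicate block, each library left out, and DCKO replicates 1 and 2 left out. A paired sign-flip test of the ratios and their sign by the longest transcript were added after the data were seen. Single values of a few listed genes are not reported here.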

Additional observations from a re-analysis of the deposited data

Results flagged for a closer look

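In 1 of 33 groups of 4 values examined, a library stood apart by Dixon's criterion, which chance meets in about 1 of 20 groups. The log2 ratio of Slc38a1 to Slc38a2 was -1.474 in DCKO replicate 4, while the other 3 DCKO libraries lay between -1.697 and -1.667; the gap was 0.866 of the range of the group, above the critical value for 4 samples. The same library had the highest Slc7a5 to Slc7a6 ratio of its group (0.47) and its lowest Tfrc level (525 CPM).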

How the results depend on the processing

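Of the 24 member results (8 genes in 3 comparisons), 14 kept direction and side of the threshold under all 21 alternatives. The count of genes called between DCKO and DN3b, 2635, fell to 1062 with the replicate block and 950 without DCKO replicates 1 and 2, and ran from 1601 to 3249 when single libraries were left out; the 8 genes called there were 0 with the block, 0 without DCKO replicates 1 and 2, 2 with upper quartile factors, and 0 to 2 without single libraries. DCKO numbers pair with neither control group (correlations -0.257 to 0.119), so the block there adds a shared number and no pairing; under it Slc1a5 missed the threshold (-0.40, adjusted p = 0.107). Between the paired control stages it called 7 of the 8 genes and 9233 genes in all. It changed no other call of the 8 genes. Ratios without single libraries ran from 0.31 to 0.40 (Slc7a5 to Slc3a2, DN3b minus DN3a), from -0.30 to -0.15 (Slc7a5 to Slc7a6, DCKO minus DN3b) and from -0.36 to -0.29 (Slc38a1 to Slc38a2, DCKO minus DN3b). Their exact permutation p-values lay on either side of the threshold. With the pairs of the replicate block kept, DN3b minus DN3a gave exact p = 0.125, the smallest possible, for Slc7a5 to Slc3a2 (0.35), Slc7a5 to Slc7a6 (1.06) and Slc38a1 to Slc38a2 (-0.31), a test added after the data were seen. Differences near 0 changed sign, none of them called: without DCKO replicates 1 and 2, Slc38a1 against DN3a (0.068) and Slc7a1 (0.023) and Slc7a6 (-0.022) against DN3b; for Slc7a1 against DN3b also with limma-voom (0.020) and the replicate block (0.0030); with upper quartile factors, Slc7a6 (-0.041) and Slc38a1 (-0.0060) against DN3b. Without single libraries the ranges crossed 0 for Slc1a5 (-0.11 to 0.017) and Slc38a1 (-0.13 to 0.031) against DN3a and for Slc7a1 (-0.16 to 0.11), Slc7a6 (-0.053 to 0.10) and Slc38a1 (-0.014 to 0.14) against DN3b. Where no cause is named, the cause was not tested.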
